A study of Mus musculus with 21 samples.

Results

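The genes described here are 10 mouse genes for neuronal RNA-binding and splicing factors: Elavl2, Elavl3, Elavl4, Nova1, Nova2, Rbfox1, Rbfox3, Ptbp1, Ptbp2 and Srrm4. They were picked as a set of named genes out of 55400 genes counted in the series. The rule that names them uses no value, but earlier results of these data were known when they were chosen. All 10 passed the filter on low counts in every comparison. The study measured poly-A RNA by RNA-seq in mouse embryonic stem cells (mESCs) directed to motor neurons of the hypaxial motor column, the group that supplies muscles of the body wall. It held 21 libraries in 7 groups of 3 biological replicates. The paper describes the replicates as independent experiments, without saying whether equal numbers were grown together.

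The cells in all 7 groups were wild-type C57BL/6 mESCs, grown on mitomycin-C-treated embryonic fibroblast feeders and differentiated as embryoid bodies. All received 1 µM retinoic acid and 0.5 µM of the Hedgehog agonist SAG from day 2. The Notch pathway inhibitor DAPT (5 µM) was added at day 4, the time at which the D4 group was collected, and the medium given with DAPT at day 5 is described without retinoic acid or SAG. The step from D4 to D4H8 therefore also spans the addition of DAPT, and that from D5 to D6 the change of medium, which cannot be told apart from time. The untreated groups were D4 (motor neuron progenitors, pMNs), D4H8 (8 h later, proneural motor neurons, pnMNs), D5 (newborn motor neurons, nbMNs) and D6 (mature motor neurons, mMNs). The treated groups D4H8+GSKJ4, D5+GSKJ4 and D6+GSKJ4 received GSKJ4, an inhibitor of the H3K27 demethylases Kdm6a and Kdm6b, for the day before collection, starting at D3H8, D4 and D5. The dose of GSKJ4 used for these libraries is not given in the sources used here. Embryoid bodies are mixed cultures, and in bulk RNA fewer cells of a type and less RNA per cell cannot be told apart.

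Neurons process their transcripts with a set of regulators that other cells mostly lack. Ptbp1, the polypyrimidine tract-binding protein of non-neuronal and progenitor cells, represses neuronal exons. As cells become neurons Ptbp1 is replaced by its paralog Ptbp2, Srrm4 promotes neuronal microexons, and the Elavl, Nova and Rbfox proteins bind U-rich, pyrimidine-CA and UGCAUG elements to set splicing and mRNA stability.

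The libraries held 14982115 to 34383842 counts in all. The summed FPKM of 7 motor neuron markers was 7.60 to 19.2 at D4 and 410 to 470 at D6, and that of 6 general neuron markers went from 28.9 to 60.2 at D4 to 1715 to 1988 at D6. Of 9 spinal interneuron markers, 7 to 9 lay under 1 FPKM in each library. The fibroblast markers, which feeders would carry, summed to 4.34 to 27.3 FPKM and the glial markers to 4.2 to 12.6 over all libraries. Transcripts of 5 pluripotency genes were lowest in replicate 1 within every group, at 121, 285 and 218 summed FPKM for replicates 1, 2 and 3 of D4 and 11.3, 90.6 and 81.0 at D6, and their part in the results was not tested. D5+GSKJ4 replicate 2 stood apart in its low counts. It had 790 genes with 1 to 9 counts, where the other libraries had 6444 to 8520, and 16019 genes with any count against 22595 to 26061. The edgeR tests of members that use it are therefore given with and without it, and those of other genes only with it.

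Sequences of the start sites are shown for 4 members, since Srrm4 and Elavl3 had the steepest well-counted rises over the first 8 h and the levels of the paralogs Ptbp1 and Ptbp2 converged. Each is the RefSeq promoter on GRCm38.p6, from 250 bases before to 50 bases after the start site, written 5′ to 3′ on the gene's strand. Capitals mark the E-box forms CAGCTG, and CAGATG or its reverse complement CATCTG, which proneural basic helix-loop-helix factors are known to bind.
Srrm4, chr5:116591768-116592067, minus strand: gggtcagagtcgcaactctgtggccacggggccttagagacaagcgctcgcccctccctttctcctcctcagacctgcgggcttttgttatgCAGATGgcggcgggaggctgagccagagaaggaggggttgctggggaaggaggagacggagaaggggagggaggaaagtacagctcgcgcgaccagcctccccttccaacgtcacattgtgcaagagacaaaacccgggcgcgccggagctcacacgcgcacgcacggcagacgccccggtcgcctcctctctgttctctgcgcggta
Elavl3, chr9:22051974-22052273, minus strand: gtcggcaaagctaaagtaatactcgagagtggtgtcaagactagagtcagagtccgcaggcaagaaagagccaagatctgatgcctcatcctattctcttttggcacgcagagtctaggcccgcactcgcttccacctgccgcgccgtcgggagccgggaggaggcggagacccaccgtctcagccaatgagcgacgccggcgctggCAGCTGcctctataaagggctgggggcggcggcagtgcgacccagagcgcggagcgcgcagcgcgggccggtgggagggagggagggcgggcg
Ptbp1, chr10:79854182-79854481, plus strand: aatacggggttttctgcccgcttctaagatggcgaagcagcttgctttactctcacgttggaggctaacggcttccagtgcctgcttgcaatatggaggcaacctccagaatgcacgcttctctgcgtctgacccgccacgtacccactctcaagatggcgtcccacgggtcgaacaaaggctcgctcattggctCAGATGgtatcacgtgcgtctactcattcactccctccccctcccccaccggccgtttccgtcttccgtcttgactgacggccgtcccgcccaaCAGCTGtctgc
Ptbp2, chr3:119783339-119783638, minus strand: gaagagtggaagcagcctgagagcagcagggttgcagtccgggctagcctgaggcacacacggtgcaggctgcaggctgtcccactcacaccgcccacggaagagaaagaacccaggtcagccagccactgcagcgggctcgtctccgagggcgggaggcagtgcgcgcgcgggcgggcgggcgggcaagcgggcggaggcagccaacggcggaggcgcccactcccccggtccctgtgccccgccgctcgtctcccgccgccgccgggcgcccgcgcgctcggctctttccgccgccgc
The Srrm4 promoter held 1 CAGATG, 158 bases before the start site, and the Elavl3 promoter 1 CAGCTG, 43 bases before it. Ptbp1 held CAGATG 55 bases before and CAGCTG 39 bases after its start site, and Ptbp2 held neither. All 4 were rich in CG dinucleotides, with 25, 29, 22 and 36 in 300 bases for Srrm4, Elavl3, Ptbp1 and Ptbp2, where the median of all promoters was 7. At least 1 start site held CAGCTG in 6 of the 10 members, and CAGATG or CATCTG in 3, and either in 7. Among 32851 mouse promoters in the table the shares were 16.3%, 17.2% and 30.6%. Elavl2 has 6 and Elavl4 has 4 listed start sites, which raises their chance of a match, and of the 7 members with a single start site 4 held either form. A match is a string of letters in this window, not a bound site.

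Ptbp1 and Ptbp2 are joined by 1 exon. In Ptbp2 exon 10 of a 14-exon coding transcript (chr3:119724612-119724645, minus strand, GRCm38, GENCODE M21) is 34 bases long and is found in 3 of 13 annotated transcripts. Its length leaves a remainder of 1 when divided by 3, so leaving it out shifts the reading frame. Ptbp1 is known to repress this exon, and the transcript without it is degraded.
Ptbp2 exon 10: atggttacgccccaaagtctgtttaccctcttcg
The counts are per gene and hold no exon inclusion.

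Ptbp1 (ENSMUSG00000006498, 10:79854427-79864771) was the one member that fell over the untreated stages. Its FPKM was 145, 152 and 159 in the D4 libraries, 170, 148 and 143 at D4H8, 31.5, 70.1 and 79.3 at D5 and 25.8, 36.1 and 43.9 at D6. Every D5 and D6 library lay below every D4 and D4H8 library, and replicate 1 was the lowest within both D5 and D6. From D4 to D6 Ptbp1 fell by 2.05 ± 0.26 (SE) on the log2 scale, or 4.15-fold (edgeR's quasi-likelihood test, adjusted p = 1.13e-05). The change from D4 to D4H8 was -0.03 ± 0.25 (adjusted p = 0.961), and the step from D4H8 to D5 held 66.2% of the log2 change, a fall of 2.57-fold (-1.36 ± 0.26, adjusted p = 0.00137). From D5 to D6 the estimate was -0.66 ± 0.25 (adjusted p = 0.0597), which did not pass the threshold with all libraries but did without D5 replicate 1 (-0.96, adjusted p = 0.00112) or without D6 replicate 3 (-0.82, adjusted p = 0.0433). It also passed with all libraries in DESeq2 (adjusted p = 0.0391), with upper-quartile scaling (adjusted p = 0.0388), without a filter (adjusted p = 0.000203) and in one fit over all groups (adjusted p = 0.0466). Over the same stages the summed FPKM of 5 dividing-cell markers went from 514 to 595 at D4 to 45.5 to 109 at D6, and its part in the Ptbp1 change was not tested. Genes on the other strand share 983 of the 4740 exonic bases of Ptbp1, and the counting strand is not stated.

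Ptbp2 (ENSMUSG00000028134, 3:119718742-119784466), the neuronal paralog, was already present in progenitors and had the smallest change from D4 to D6 among the members. Its FPKM was 24.7, 25.6 and 25.0 at D4, 31.0, 28.4 and 28.2 at D4H8, 41.1, 36.5 and 34.7 at D5 and 32.9, 32.4 and 30.3 at D6. Each D6 library was higher than any D4 library, by 1.33-fold in the fit (0.41 ± 0.12 on the log2 scale, adjusted p = 0.00841). The rise from D4H8 to D5 was 0.36 ± 0.12 (adjusted p = 0.0359). Both calls rested on single libraries. The rise from D4H8 to D5 did not pass without D4H8 replicate 2 (0.34, adjusted p = 0.127) or 3 (0.32, adjusted p = 0.124), or without D5 replicate 1 (0.27, adjusted p = 0.136), 2 (0.34, adjusted p = 0.103) or 3 (0.38, adjusted p = 0.0579), and that from D4 to D6 did not pass without D4 replicate 3 (0.32, adjusted p = 0.0566), with upper-quartile scaling (adjusted p = 0.0568) or in one fit over all groups (adjusted p = 0.0843).

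The ratio of the paralogs' FPKM within a library does not depend on scaling. Ptbp1 over Ptbp2 lay between 5.88 and 6.39 in the D4 libraries, 5.09 and 5.49 at D4H8, 0.766 and 2.29 at D5 and 0.785 and 1.45 at D6. Ptbp1 was well above Ptbp2 in every D4 library and near it in the D6 libraries, and the ratio was below 1 in replicate 1 alone at both D5 and D6. The mean log2 ratio was 2.60 ± 0.07 at D4 and 0.11 ± 0.44 at D6 (SD, n = 3), a difference of -2.49 (two-sided exact permutation test, p = 0.10, the smallest that 3 against 3 libraries allow).

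**Figure D1:**
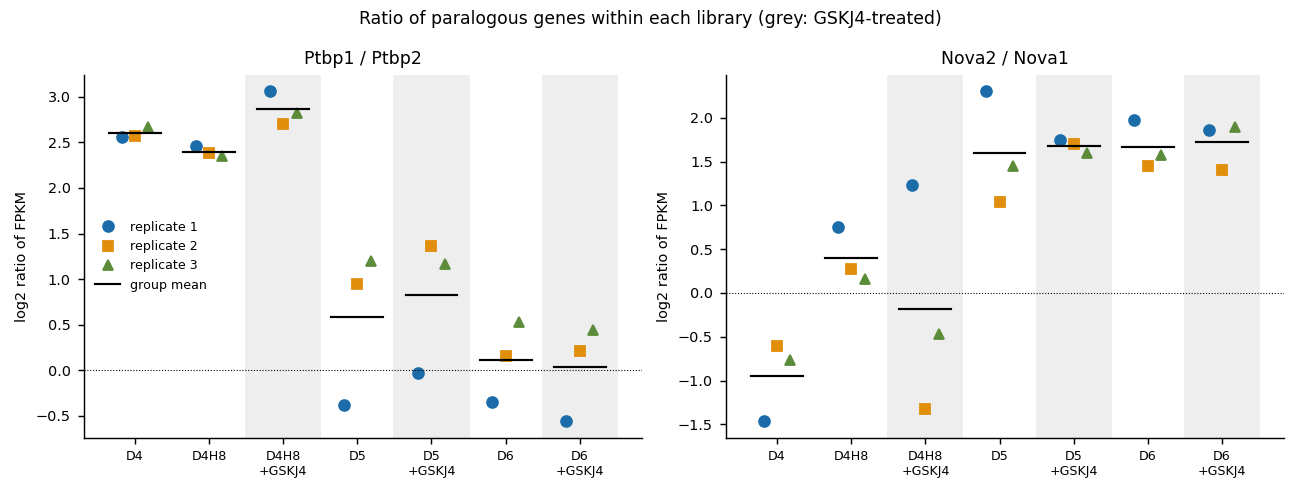
Log2 ratio of FPKM within each of the 21 libraries for Ptbp1 over Ptbp2 (left) and Nova2 over Nova1 (right), with symbols for the replicate number, bars for group means and grey for GSKJ4-treated groups. Ptbp1 over Ptbp2 falls from a mean of 2.60 at D4 to 0.11 at D6, and Nova2 over Nova1 goes from -0.94 to 1.67.

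Srrm4 (ENSMUSG00000063919, 5:116439275-116591817) encodes the SR-related factor, also called nSR100, that promotes microexons and exon 10 of Ptbp2. Its FPKM was 1.32, 1.96 and 1.92 at D4, 12.6, 8.57 and 9.48 at D4H8, 19.8, 19.7 and 20.2 at D5 and 19.8, 16.0 and 15.1 at D6. The D4 and D4H8 groups did not overlap, and D5 and D6 did. The rise within the 8 h from D4 to D4H8 was 5.76-fold (2.53 ± 0.18 on the log2 scale, adjusted p = 9.84e-06) and made up 74.9% of the log2 change from D4 to D6. A further rise followed to D5 (0.96 ± 0.17, adjusted p = 0.000881), and D6 differed from D5 by -0.11 ± 0.17 (adjusted p = 0.649).

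Elavl3 and Elavl4 (HuC and HuD, 9:22015005-22052023 and 4:110203722-110351909), which bind U-rich elements and stabilise neuronal mRNAs, also rose at the first step. Elavl3 FPKM was 2.41, 3.81 and 3.18 at D4, 23.5, 15.03 and 14.2 at D4H8, 46.9, 61.2 and 55.5 at D5 and 110, 92.5 and 89.1 at D6. Elavl4 FPKM was 4.62, 7.68 and 5.42 at D4, 38.5, 23.6 and 22.2 at D4H8, 100, 116 and 104 at D5 and 141, 105 and 114 at D6. For both genes every D4H8 library lay above every D4 library, and they parted at the last step, where Elavl3 groups did not overlap and Elavl4 groups did. Elavl3 rose 5.48-fold from D4 to D4H8 (2.45 ± 0.22, adjusted p = 2.65e-05) and again from D5 to D6 (0.95 ± 0.20, adjusted p = 0.0027), a step that did not pass in one fit over all groups (0.91, adjusted p = 0.0966). Elavl4 rose 4.65-fold from D4 to D4H8 (2.22 ± 0.24, adjusted p = 7.79e-05), while from D5 to D6 it differed by 0.29 ± 0.22 (adjusted p = 0.341). At D5 the mean FPKM of Elavl4 was 88.9% of its D6 mean and that of Elavl3 56.2%.

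Elavl2 (HuB, 4:91250763-91400785) rose most at a later step. Its FPKM was 3.15, 3.79 and 3.03 at D4, 7.96, 6.63 and 5.92 at D4H8, 35.6, 42.2 and 37.0 at D5 and 63.1, 58.2 and 54.1 at D6. No 2 stages overlapped. The step from D4H8 to D5 held 59% of its log2 change (2.48 ± 0.15, adjusted p = 1.41e-07), against 32.3% for Elavl3 and 43.3% for Elavl4. The rise from D5 to D6 (0.73 ± 0.15, adjusted p = 0.00181) did not pass in one fit over all groups (0.69, adjusted p = 0.0517).

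Rbfox1 and Rbfox3 encode readers of UGCAUG, and Rbfox3 is the antigen NeuN of mature neurons. Rbfox1 (16:5885355-7411526) had 7, 3 and 3 counts in the D4 libraries, and its FPKM was 0.67, 0.71 and 0.27 at D4H8, 12.3, 15.8 and 14.0 at D5 and 66.6, 52.7 and 44.3 at D6. It was the member nearest to absent in progenitors and the one with the largest change. Its change from D4 to D6 was 10.04 on the log2 scale (95% interval 9.22 to 10.86, adjusted p = 1.89e-10), a size that rests on those few D4 counts. Its change from D4 to D4H8, 3.35 ± 0.46 (edgeR, adjusted p = 0.000514), rests on the same few counts. From D4H8 to D5 it rose 24.4-fold (4.61 ± 0.28, adjusted p = 1.15e-07) and from D5 to D6 by a further 2.08 ± 0.23 (adjusted p = 1.91e-05). Rbfox3 (11:118489762-118911597) stayed low, with FPKM of 0.09, 0.32 and 0.32 at D4, 0.78, 0.91 and 0.69 at D4H8, 2.75, 2.72 and 2.62 at D5 and 8.05, 7.40 and 4.83 at D6. Its stages did not overlap either, and its rise was spread evenly, with 34.7%, 35.9% and 29.4% of the log2 change at the 3 steps. At D5 Rbfox1 and Rbfox3 stood at 25.7% and 39.9% of their D6 mean FPKM, the lowest shares among the members that rose.

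Nova1 and Nova2, paralogs that bind pyrimidine-CA-pyrimidine clusters, changed places. Nova1 (12:46694517-46818929) had FPKM of 3.20, 2.73 and 3.62 at D4, 5.17, 4.44 and 4.65 at D4H8, 6.28, 10.1 and 8.22 at D5 and 14.0, 13.7 and 12.1 at D6. Nova2 (7:18925888-18965319) had 1.16, 1.80 and 2.13 at D4, 8.73, 5.38 and 5.20 at D4H8, 31.0, 20.8 and 22.5 at D5 and 55.0, 37.5 and 36.3 at D6. Nova2 was below Nova1 in all 3 D4 libraries and above it in all 9 untreated libraries that followed. Nova2 over Nova1 had a mean log2 ratio of -0.94 ± 0.46 at D4 and 1.67 ± 0.27 at D6 (SD, n = 3), a difference of 2.61 (two-sided exact permutation test, p = 0.10, the smallest possible). Nova2 rose 27.1-fold from D4 to D6 (4.76 ± 0.30, adjusted p = 1.19e-08) and Nova1 4.36-fold (2.12 ± 0.17, adjusted p = 1.24e-07). Nova1 did not pass at the first step (0.53 ± 0.17, adjusted p = 0.104), and the last step of Nova2 (0.91 ± 0.26, adjusted p = 0.0145) did not pass without D5 replicate 2 (0.78, adjusted p = 0.0738), D5 replicate 3 (0.82, adjusted p = 0.0649) or D6 replicate 1 (0.65, adjusted p = 0.0771). Of the 8372 exonic bases of Nova2, 2652 are shared with Gm26821 on the other strand.

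**Figure D2:**
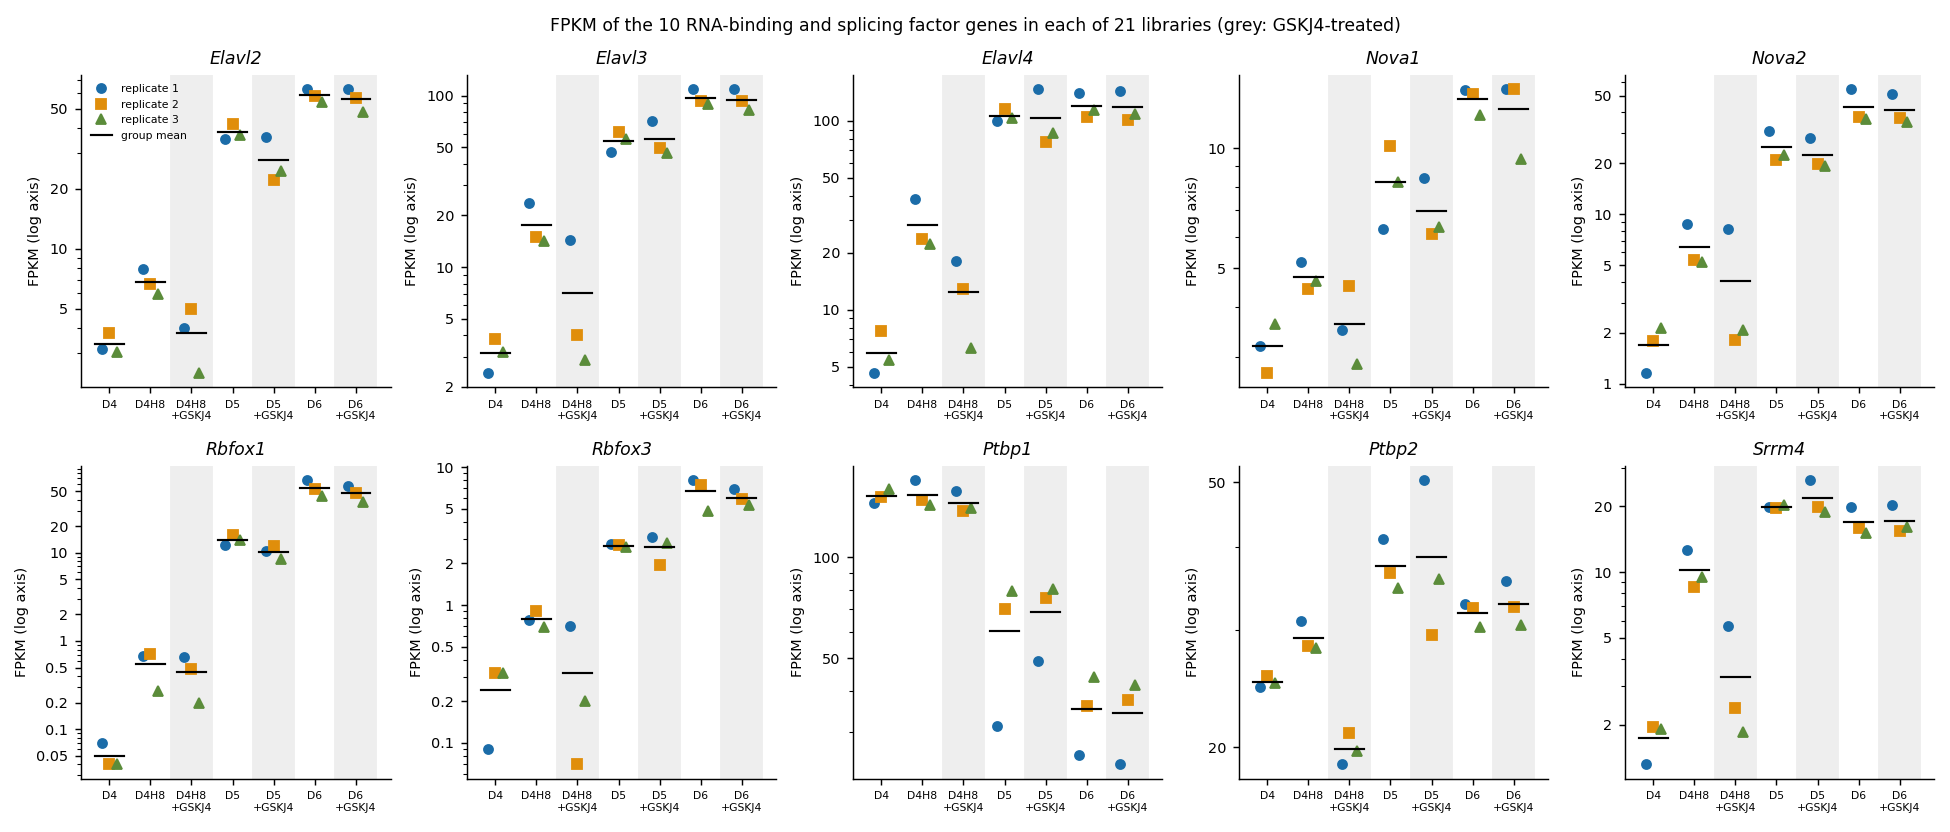
FPKM (log axis) of each member in all 21 libraries, with symbols for the replicate number, bars for group means and grey for GSKJ4-treated groups. Ptbp1 falls between D4H8 and D5, Srrm4 reaches its D6 level by D5, and Rbfox1 goes from under 0.1 at D4 to 44.3 to 66.6 at D6.

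Counted over the members, 7 of 10 rose from D4 to D4H8, where 4.06% of all tested genes were higher. From D4H8 to D5, 9 rose and 1 fell, where 17.2% of all genes were higher and 10.5% lower. From D5 to D6, 6 rose, where 19.2% of all genes were higher, and the 4 that did not pass were Elavl4, Ptbp1, Ptbp2 and Srrm4. Between D4 and D6, 9 rose and 1 fell, against 32.9% higher and 31% lower among all genes. The median log2 change of the members was 1.81, 1.70 and 0.77 at the successive steps and 4.31 from D4 to D6, beside -0.02, 0.01, -0.02 and -0.04 over all genes tested. Stages without overlap were common among all genes. On CPM scaled by TMM, 2484 of 17519 tested genes had every D4H8 library above every D4 library. For D5 above D4H8 the count was 4239, for D6 above D5 4526 and for D6 above D4 6254. Every later library was lower in 3413 genes from D4H8 to D5 and in 6009 from D4 to D6. Neighbouring steps share the libraries of the stage between them, so their estimates are not independent.

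**Figure D3:**
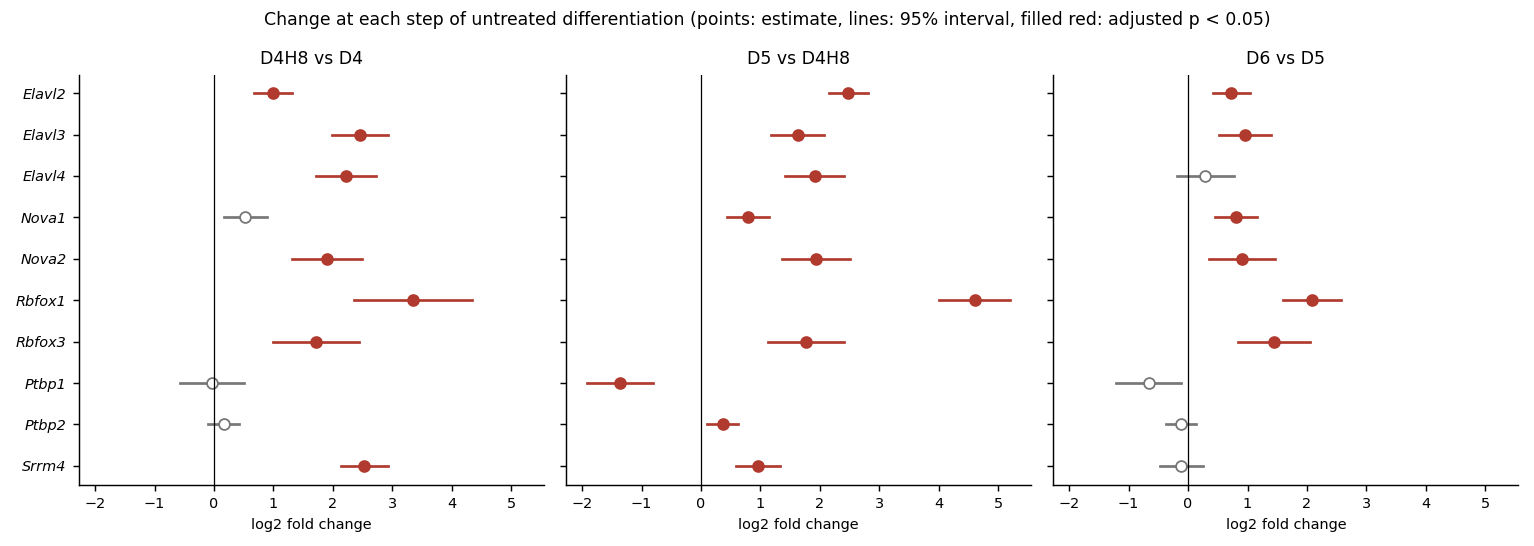
Log2 fold change of each member at each step of untreated differentiation (edgeR, 12 libraries), with 95% intervals and filled red points for adjusted p under 0.05. Rbfox1, Srrm4, Elavl3 and Elavl4 change by over 2 at the first step, and Rbfox1 by 4.61 at the second. Ptbp1 is the one member called lower, at the second step. At the last step Ptbp1, Ptbp2 (-0.12) and Srrm4 (-0.11) lie below 0, none of them called.

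The order of the members by mean FPKM turned over. At D4 mean FPKM was highest for Ptbp1 (152), then Ptbp2 (25.1) and Elavl4 (5.91), and Rbfox1 (0.05) was lowest. At D6 the order was Elavl4 (120), Elavl3 (97.1), Elavl2 (58.5), Rbfox1 (54.5), Nova2 (42.9), Ptbp1 (35.2), Ptbp2 (31.9), Srrm4 (17.0), Nova1 (13.3) and Rbfox3 (6.76). At D6 the ranges of Elavl4 and Elavl3 overlapped, as did each neighbouring pair from Elavl2 down to Ptbp2, and the other neighbours were apart. The genes whose 7 group means tracked those of Elavl4 most closely, among 11095 genes with enough counts, were the protocadherin gene Pcdhb17 (r = 0.998), the neuronal tubulin Tubb3 (r = 0.997) and Clvs1 (r = 0.996), as a description over 7 groups that share their libraries.

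Other RNA-binding proteins moved in both directions from D4 to D6. Of 13 further neuronal splicing regulators 10 rose and 1 fell, with a median log2 change of 2.03 beside -0.04 over all genes. Among all tested genes 32.9% were called higher and 31% lower. The largest rises were in the CELF family members Celf6 (6.15 ± 0.42, adjusted p = 2.28e-08), Celf3 (6.03 ± 0.33, adjusted p = 2.5e-09) and Celf4 (4.33 ± 0.22, adjusted p = 1.56e-09), and in Srrm3 (5.34 ± 0.29, adjusted p = 2.72e-09), the paralog of Srrm4. Rbfox2, the widely expressed Rbfox gene, rose by 2.03 ± 0.12 (adjusted p = 8.54e-09), and Mbnl1 fell by 0.47 on the log2 scale (adjusted p = 0.00911).

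Of 8 genes listed as widely expressed relatives of the members none rose and 5 fell, with a median of -0.42. That list leaves out Rbfox2, which rose and was counted among the neuronal regulators, so the absence of a rise depends on this placement. Mbnl3 fell by 1.35 (adjusted p = 0.00287), Raly by 0.61 (adjusted p = 0.000292), Celf1 by 0.53 (adjusted p = 0.000395) and Srrm1 by 0.45 (adjusted p = 0.0193) on the log2 scale. Elavl1 (HuR), the ubiquitous Elavl gene, fell by 0.39 on the log2 scale (adjusted p = 0.014), and Ptbp3 differed by 0.21 (adjusted p = 0.104). Of 9 RNA-binding proteins of progenitor and early cells 1 rose and 5 fell, with a median of -0.86. Those that fell included Lin28a (by 1.72 on the log2 scale, adjusted p = 5.93e-07) and Lin28b (by 1.66, adjusted p = 1.52e-07), which block let-7 maturation, Esrp1 (by 1.58, adjusted p = 0.00293), an epithelial splicing factor, and Igf2bp1 (by 1.12, adjusted p = 4.73e-05). Of 16 core and SR splicing factors none rose and 13 fell, with a median of -0.73. U2af1 fell by 1.29 (adjusted p = 4.25e-06), Tra2b by 1.10 (adjusted p = 2.08e-05), Srsf3 by 1.06 (adjusted p = 4.08e-05) and Hnrnpu by 1.03 (adjusted p = 9.24e-06) on the log2 scale.

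Among 5 linked regulators 2 rose and 1 fell, shares near the 32.9% higher and 31% lower of all genes. The 2 that rose are host transcripts of miR-124, a neuronal microRNA known to repress Ptbp1, and they were Mir124a-1hg (4.33 ± 0.24, adjusted p = 3.07e-09) and Mir124-2hg (1.53 ± 0.17, adjusted p = 2.18e-06). Rest, the repressor of neuronal genes in other cells whose own transcript Srrm4 is known to splice, fell by 1.27 ± 0.28 on the log2 scale (adjusted p = 0.00136).

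The second question of the design was what inhibition of the H3K27 demethylases did to these genes at each stage. At D4H8 all 10 estimates were below 0 and 1 gene, Srrm4, passed the test, where 1.85% of all genes were called lower. The median log2 change of the members was -0.80 beside 0.02 over all genes tested. Srrm4 FPKM was 12.6, 8.57 and 9.48 in the untreated and 5.66, 2.39 and 1.85 in the treated libraries. The groups did not overlap, and treated replicate 3 lay within the D4 range of 1.32 to 1.96, with replicate 2 just above it. The change was a fall of 3.20-fold (-1.68 ± 0.38 on the log2 scale, 95% interval -2.54 to -0.82, adjusted p = 0.0455). The Srrm4 call did not pass without D4H8 replicate 1 (-1.47, adjusted p = 0.207), 2 (-1.80, adjusted p = 0.123) or 3 (-1.75, adjusted p = 0.116), or without D4H8+GSKJ4 replicate 2 (-1.54, adjusted p = 0.0637) or 3 (-1.37, adjusted p = 0.0732). It did pass with all libraries in DESeq2 (-1.68, adjusted p = 0.00022) and with replicate numbers 2 and 3 alone in edgeR (-2.08, adjusted p = 0.0399).

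Elavl4 FPKM was 18.1, 12.9 and 6.24 in the D4H8+GSKJ4 libraries against 38.5, 23.6 and 22.2 in D4H8, and Elavl2 was 4.02, 4.99 and 2.39 against 7.96, 6.63 and 5.92. Ptbp2 was 18.9, 21.1 and 19.7 against 31.0, 28.4 and 28.2. For these 3 genes the highest treated value was under the lowest untreated value, but none of the estimates passed edgeR's test. They were -1.22 ± 0.38 for Elavl4 (adjusted p = 0.0935), -0.86 ± 0.30 for Elavl2 (adjusted p = 0.118) and -0.58 ± 0.17 for Ptbp2 (adjusted p = 0.0828). DESeq2 called the 3 genes, Elavl4 at adjusted p = 0.0123 and Elavl2 (0.0477) and Ptbp2 (0.0498) just under the threshold. Of 16099 genes with an adjusted p, DESeq2 called 1965, of which 837 were lower. Every D4H8+GSKJ4 library was also below every D4 library in Ptbp2, whose D4 range was 24.7 to 25.6. On CPM scaled by TMM, 2441 of 16225 tested genes had every treated library below every D4 library. The Ptbp2 estimate against D4 did not pass edgeR's test (-0.44 ± 0.19, adjusted p = 0.203).

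In the fit without a replicate block, Elavl3, Nova2 and Rbfox3 depended on 1 treated library. Elavl3 FPKM was 14.4, 4.03 and 2.89 in D4H8+GSKJ4 replicates 1, 2 and 3, Nova2 8.19, 1.81 and 2.08, and Rbfox3 0.70, 0.07 and 0.20. Replicate 1 thus lay within the untreated range (14.2 to 23.5, 5.20 to 8.73 and 0.69 to 0.91) while replicates 2 and 3 lay far below it. With all libraries the estimates were -1.37 ± 0.52 for Elavl3 (adjusted p = 0.144), -0.74 ± 0.51 for Nova2 (adjusted p = 0.394) and -1.37 ± 0.63 for Rbfox3 (adjusted p = 0.215). With the replicate number as a block and all libraries kept, edgeR called these 3 genes (adjusted p = 0.000758, 0.0162 and 0.0324). The replicate 2 libraries, however, correlated at only 0.0823 in their deviations from group means. With no block but without D4H8+GSKJ4 replicate 1 these 3 genes also passed, at -2.35 (adjusted p = 0.0152), -1.75 (adjusted p = 0.0286) and -2.61 (adjusted p = 0.0374), and Srrm4 kept its call (-2.28, adjusted p = 0.0091). Without D4H8+GSKJ4 replicate 2, Elavl2 (-1.19, adjusted p = 0.0336), Nova1 (-0.67, adjusted p = 0.0435) and Ptbp2 (-0.69, adjusted p = 0.0211) passed instead. The general neuron markers summed to 194 FPKM in treated replicate 1 and to 69.7 in the lowest treated library, and their part in this difference was not tested.

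The remaining 3 members changed least. Ptbp1 FPKM was 158, 137 and 140 in D4H8+GSKJ4 against 170, 148 and 143 in D4H8, with overlapping groups and an estimate of -0.12 (95% interval -0.52 to 0.28, adjusted p = 0.698). Nova1 differed by -0.41 ± 0.24 (adjusted p = 0.318) and Rbfox1 by -0.36 ± 0.53 (adjusted p = 0.706). The ratio of Ptbp1 to Ptbp2 FPKM lay between 6.52 and 8.37 in the treated libraries, all above the 5.09 to 5.49 of the untreated ones. In FPKM 4 of the 10 members (Elavl2, Elavl4, Ptbp2 and Srrm4) had all treated below all untreated libraries, where 14.3% of all genes did. On CPM scaled by TMM over these 6 libraries Elavl3 and Rbfox3 joined them by small margins, which makes 6 members where 16.8% of all genes did.

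**Figure D4:**
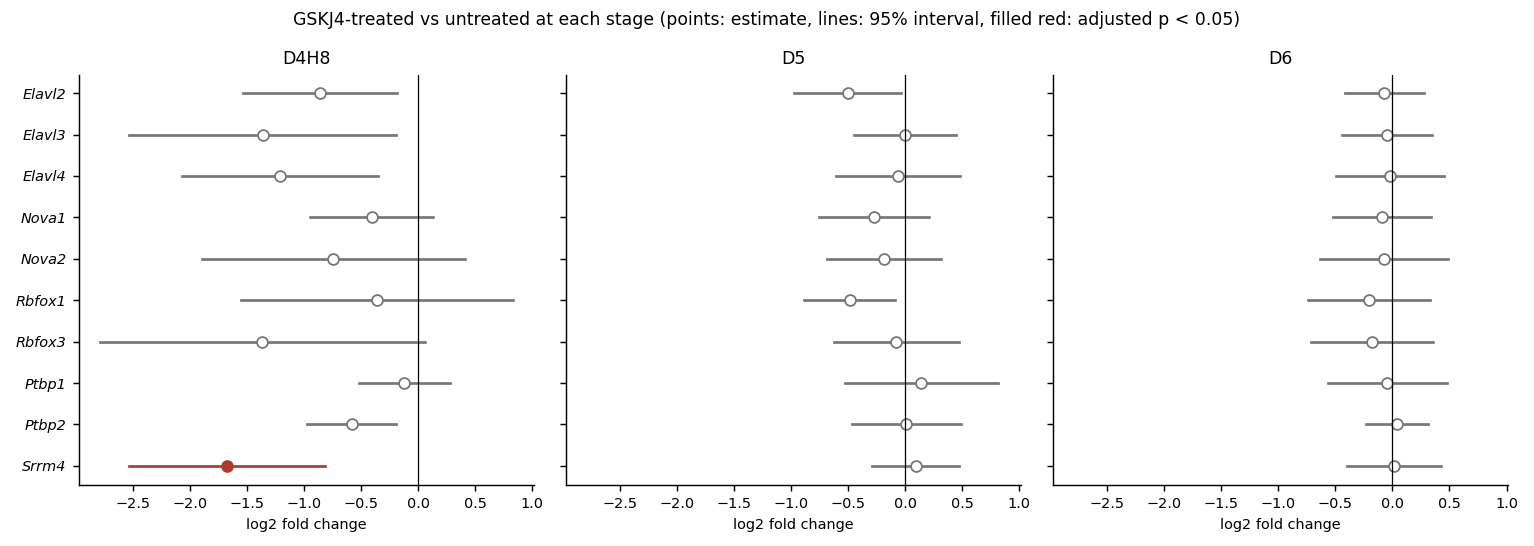
Log2 fold change of each member in GSKJ4-treated against untreated libraries at D4H8, D5 and D6 (edgeR, 6 libraries each), with 95% intervals and filled red points for adjusted p under 0.05. At D4H8 all 10 estimates lie below 0, and at D6 they lie between -0.20 and 0.04.

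Of the 5 linked regulators 2 were called lower with GSKJ4 at D4H8, both of them miR-124 host transcripts, and 3 were not called. Mir124-2hg fell by 2.27 ± 0.40 (adjusted p = 0.0246) and Mir124a-1hg by 1.97 ± 0.37 (adjusted p = 0.0273) on the log2 scale. Rest was 16.8 to 17.6 FPKM in the treated libraries and its estimate, 0.62 ± 0.18, did not pass (adjusted p = 0.0819). Of the 13 other neuronal splicing regulators 1 fell, Rbm24 (by 1.78 ± 0.41 on the log2 scale, adjusted p = 0.0459), and the median was -0.12, with Srrm3 at -0.97 (adjusted p = 0.222) and Rbfox2 at 0.05 (adjusted p = 0.893). Of the 8 widely expressed relatives, the 9 early RNA-binding proteins and the 16 core and SR factors edgeR called none at D4H8, with medians of 0.02, 0.12 and -0.38. Elavl1 was at -0.40 (adjusted p = 0.215), and Ptbp3 at 0.93 (adjusted p = 0.108), with 48.8 FPKM in treated replicate 2 and 23.6 and 25.0 in the others. Over these 5 lists 3 of 51 genes passed, against 20 at an unadjusted p under 0.05 and 9 with DESeq2. Over all 16269 tested genes 2290 were higher and 1795 lower at that unadjusted threshold, and DESeq2 called 1965 of 16099.

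Markers of several cell types differed between the same libraries. At D4H8 the motor neuron markers summed to 55.3 to 60.2 FPKM in untreated and 11.7 to 27.2 in treated libraries, and the neural progenitor markers to 231 to 319 and 59.0 to 120. The progenitor sum does not track the untreated stages, at 156 to 235 at D4 and 154 to 220 at D6. Of its 7 genes 5 fell and 1 rose from D4 to D6. The general neuron markers summed to 157 to 315 in untreated and 69.7 to 194 in treated libraries. Of those 6 markers 4 had estimates below 0 and 2 above, and none was called. Isl1 fell by 2.44 (adjusted p = 0.0103) and Lhx3 by 3.10 (adjusted p = 0.0194), both motor neuron transcription factors, as did the progenitor gene Olig2 by 3.91 (adjusted p = 0.0103) on the log2 scale. The summed pluripotency transcripts were 108, 195 and 244 FPKM in treated against 55.2, 236 and 149 in untreated replicates 1, 2 and 3. The 5 dividing-cell markers summed to 495 to 513 FPKM in untreated and 274 to 433 in treated libraries, and 1 of them, Pcna, was called lower (by 0.94 on the log2 scale, adjusted p = 0.0331). All 6 fibroblast markers tested had estimates above 0, with a median of 0.78 and none called. The part of these shifts in the members' values was not tested.

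Against D4, the stage 8 h earlier, the D4H8+GSKJ4 libraries were higher in Rbfox1 (2.95 ± 0.62, adjusted p = 0.0424) and in no other member, where 1.08% of all genes were called higher. This call did not pass without D4 replicate 1 (adjusted p = 0.157), 2 (adjusted p = 0.199) or 3 (adjusted p = 0.103), or without D4H8+GSKJ4 replicate 1 (adjusted p = 0.114). The other estimates ran from -0.44 for Ptbp2 to 1.15 for Nova2. This comparison was fitted on its own 6 libraries, so its count is not on the footing of the 12-library stage fit, with which it shares the D4 libraries.

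At D5 edgeR called no member, where 0.00613% of all genes were called in either direction, which is 1 gene. At an unadjusted p under 0.05 there were 2 members, and DESeq2 called 0. Over all 16309 tested genes 377 were higher and 390 lower at that unadjusted threshold, and DESeq2 called 69. Elavl2 FPKM was 36.4, 21.9 and 24.6 with GSKJ4 against 35.6, 42.2 and 37.0 without (-0.50 ± 0.21, adjusted p = 0.976). Rbfox1 was 10.3, 12.01 and 8.59 against 12.3, 15.8 and 14.0 (-0.49, 95% interval -0.89 to -0.09, adjusted p = 0.976), and its groups did not overlap. On CPM scaled by TMM, 1041 of 16309 tested genes had every treated D5 library below every untreated one. Without D5+GSKJ4 replicate 2, the library with few low counts, edgeR again called no member, with Elavl2 at -0.35 (adjusted p = 0.999) and Rbfox1 at -0.59 (adjusted p = 0.999), and 1 gene in all. The motor neuron markers summed to 230 to 275 FPKM in untreated and 143 to 172 in treated D5 libraries, which did not overlap, and their part in these values was not tested. Srrm4, at 26.4, 20.0 and 18.9 FPKM, overlapped its untreated 19.8, 19.7 and 20.2, with an interval of -0.29 to 0.47. The other 7 estimates lay between -0.27 and 0.14.

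At D6 edgeR called 0% of all genes and no member, with 0 members at an unadjusted p under 0.05 and 0 with DESeq2. Over all genes 88 were higher and 134 lower at an unadjusted p under 0.05, and DESeq2 called 1. The 10 estimates lay between -0.20 and 0.04. Rbfox1 FPKM was 57.6, 47.9 and 37.4 with GSKJ4 against 66.6, 52.7 and 44.3 without, with overlapping groups and a lower value in the treated library of each replicate number. Libraries of the same number deviated together at D6, and with the replicate number as a block Rbfox1 was lower by a small amount (-0.21 ± 0.04, adjusted p = 0.0106), with 257 genes called in all. For Srrm4 the 95% interval was -0.40 to 0.43 without the block and -0.08 to 0.11 with it, and for Ptbp1 -0.56 to 0.47 and -0.14 to 0.05. Of the 51 genes in the 5 other lists edgeR called 0 at both D5 and D6, against 1 and 0 at an unadjusted p under 0.05 and 0 with DESeq2 at either stage.

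The difference between stages in the GSKJ4 effect was tested directly. In edgeR no member passed for D5 against D4H8 (0.249% of all genes called), for D6 against D4H8 (0.735%) or for D6 against D5 (0%). At an unadjusted p under 0.05 there were 4, 5 and 0 members, and DESeq2 called 1, 1 and 0. Over all 18103 tested genes 905 were higher and 912 lower at that unadjusted threshold for D5 against D4H8. For D6 against D4H8 they were 1294 and 1183, and for D6 against D5 187 and 171. Over all genes DESeq2 called 238, 582 and 1. The member that DESeq2 called was Srrm4, for D5 against D4H8 (adjusted p = 0.0144) and for D6 against D4H8 (adjusted p = 0.0134). Srrm4 also had the largest differences in edgeR, at 1.76 ± 0.44 for D5 against D4H8 (adjusted p = 0.136) and 1.70 ± 0.44 for D6 against D4H8 (adjusted p = 0.0845). Without D5+GSKJ4 replicate 2 the D5 against D4H8 difference of Srrm4 was 1.84 ± 0.47 (adjusted p = 0.135), and again no member passed in either difference that uses D5.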

How the data were processed

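RNA-seq libraries of 21 mESC-derived cultures were analysed. Per the submitters' notes and the methods, the authors trimmed reads with Fastp, aligned them to mm10 with HISAT2, handled alignments with SAMtools and counted them per gene with HTSeq; the counting strand is not given in the sources used here. The authors deposited raw counts per gene and FPKM (counts scaled to exonic length and library total). Of FPKM values with at least 10 counts, 95.07% lay within 1% of the value recomputed from counts, length and library total. No column was left unused (0).

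Counts were tested with edgeR 4.0.16 (quasi-likelihood, TMM, filterByExpr with a minimum count of 10, two-sided, Benjamini-Hochberg over all tested genes, threshold 0.05) in R 4.3.3. Stage contrasts used the 12 untreated libraries, each GSKJ4 contrast its 6 libraries, and differences between GSKJ4 effects 18. DESeq2 1.42.0, other scalings, filters and fits, and each library left out in turn were alternatives. Ratios of FPKM, with no pseudocount, were compared by exact permutation test (scipy 1.17.1). The edgeR step was tested on simulated data. Positions and exons came from GENCODE M21, promoters from RefSeq on GRCm38.p6.

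The members and lists were chosen with earlier results of these data known. Named genes were the 10 members, up to 4 called genes per list with the largest change, and Elavl1, Ptbp3, Rbfox2, Srrm3 and Rest. Genes with the pattern of Ptbp1 are not reported here. Replicate numbers were checked for pairing by correlating deviations from group means. Same-numbered libraries correlated over 0.1 for every number between D6 and D6+GSKJ4 (0.912, 0.671 and 0.808) and between neighbouring untreated stages (0.145 to 0.434). Between untreated stages the block changed no call of a member, and between D6 and D6+GSKJ4 it added the call of Rbfox1.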

Additional observations from a re-analysis of the deposited data

Results flagged for a closer look

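The GSKJ4 effect on both miR-124 host transcripts differed between stages in edgeR's interaction test over 18 libraries. Relative to the effect at D4H8, that on Mir124a-1hg was higher by 2.27 on the log2 scale at D5 (adjusted p = 0.0205) and by 2.08 at D6 (adjusted p = 0.0228). For Mir124-2hg the differences were 2.27 at D5 (adjusted p = 0.0275) and 2.43 at D6 (adjusted p = 0.0116). Mir124a-1hg changed by -1.97 at D4H8, 0.31 at D5 and 0.10 at D6, and Mir124-2hg by -2.27, 0.01 and 0.15. The D5 and D6 differences share the D4H8 libraries. The D5 values use D5+GSKJ4 replicate 2, the library with few low counts, and are not given without it.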

How the results depend on the processing

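Of 110 results 35 were called, and none of these changed sign under the alternatives run; 95 values of 37 uncalled results did. The count of members called moved most with GSKJ4. At D4H8 it was 1 with edgeR, 4 with DESeq2, 6 without a filter, 5 in one fit over all libraries, 2 with replicate numbers 2 and 3 alone (an alternative chosen after seeing the data, because replicate 1 libraries held fewer pluripotency transcripts), and 0 to 4 with a library left out. For D4H8+GSKJ4 against D4 it was 1, then 2, 4, 2 and 0 in that order, 0 with at least 10 counts in every library, and 0 to 2. For the difference in effect between D5 and D4H8 it was 0, then 1 with DESeq2, 3 without a filter, 3 with numbers 2 and 3 alone and 0 to 3, and the same for that between D6 and D4H8. The cause was not tested. Among stage calls, Ptbp2 from D4H8 to D5 did not pass with RLE scaling (adjusted p = 0.056), and Rbfox3 from D4 to D4H8 not in a fit of those stages alone (adjusted p = 0.0529) or in one fit over all libraries (adjusted p = 0.0795). That one fit also lost Ptbp2 from D4H8 to D5 (adjusted p = 0.217) and from D4 to D6 (0.0843), and Elavl2 (0.0517), Elavl3 (0.0966) and Nova2 (0.133) from D5 to D6; Ptbp2 from D4H8 to D5 was lost too without a filter (0.118) and in a fit of those stages alone (0.0844).

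With a replicate block, Elavl2, Elavl3, Elavl4, Nova2, Rbfox3 and Srrm4 were called at D4H8+GSKJ4, which makes 6 members (edgeR, adjusted p from 0.000165 to 0.0324). The block called 2 and 3 in the differences between D5 or D6 and D4H8, and 1 at D6, where the pairing held. Over all genes the block called 321, 880 and 257 in these comparisons. At D4H8 the treated and untreated libraries of replicates 1, 2 and 3 correlated at 0.486, 0.0823 and 0.304, and at D5 at 0.324, 0.0819 and 0.374. Replicate 2 was thus under 0.1 at both stages and the others were over it. The block moved all calls from 644 to 2274 at D4H8 and from 1 to 4 at D5. No replicate number correlated over 0.1 between D4 and D6, or between D4 and D4H8+GSKJ4. The block changed sign for Ptbp2 at D5 (-0.0327), Rbfox3 in D4H8+GSKJ4 against D4 (-0.0535) and Elavl3 in the D6 against D5 effect (0.0045).

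Other sign changes were small or uncalled. With GSKJ4 at D5, Elavl3 was 0.0039 with upper-quartile scaling and 0.0024 with at least 10 counts in every library, and Ptbp2 -0.0037 without a filter and -0.0003 in one fit. With numbers 2 and 3 alone, Ptbp2 was -0.18 and Srrm4 -0.10 at D5; Elavl3 was -0.0216, Nova2 -0.0345 and Rbfox3 -1.31 in D4H8+GSKJ4 against D4; Elavl2 was -0.10 and Nova1 -0.35 in the D5 against D4H8 effect; and Elavl3 was 0.27, Rbfox3 0.0546 and Srrm4 0.0930 in the D6 against D5 effect. With a library left out, the ranges that crossed 0 were as follows. Ptbp1 ran from -0.13 to 0.0316 between D4 and D4H8, and Rbfox1 from -0.70 to 0.0004 with GSKJ4 at D4H8. With GSKJ4 at D5 they were -0.26 to 0.13 for Elavl3, -0.45 to 0.12 for Elavl4, -0.43 to 0.0296 for Nova2, -0.25 to 0.11 for Rbfox3, -0.16 to 0.37 for Ptbp1, -0.27 to 0.18 for Ptbp2 and -0.11 to 0.20 for Srrm4. At D6 they were -0.19 to 0.0430 for Elavl2, -0.20 to 0.0866 for Elavl3, -0.23 to 0.15 for Elavl4, -0.21 to 0.10 for Nova1, -0.30 to 0.19 for Nova2, -0.40 to 0.0035 for Rbfox1, -0.39 to 0.0005 for Rbfox3, -0.20 to 0.13 for Ptbp1, -0.0570 to 0.11 for Ptbp2 and -0.15 to 0.18 for Srrm4. For D4H8+GSKJ4 against D4 they were -0.21 to 0.38 for Elavl2, -0.16 to 0.28 for Nova1 and -0.95 to 0.77 for Rbfox3. For the D5 against D4H8 effect they were -0.0841 to 0.40 for Nova1, -0.49 to 0.24 for Rbfox1 and -0.0301 to 0.48 for Ptbp1. For D6 against D5 they were -0.18 to 0.25 for Elavl3, -0.15 to 0.47 for Elavl4, -0.10 to 0.40 for Nova2, -0.30 to 0.11 for Rbfox3, -0.40 to 0.13 for Ptbp1, -0.14 to 0.35 for Ptbp2 and -0.22 to 0.16 for Srrm4. For D6 against D4H8 they were -0.19 to 0.54 for Rbfox1 and -0.0623 to 0.27 for Ptbp1. Depth limited Rbfox1 and Rbfox3 most, with 3 to 7 counts of Rbfox1 in the D4 libraries.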
